A study of Mus musculus with 22 samples.

Results

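The genes described here hold hematopoietic stem cells in the bone marrow niche or guide them to it: Cdh2, Cxcr4, Vcam1, Itga4, Itga6, Itgb1, Cd44, Selplg, Angpt1 and Vcl. They were taken by name, as every probe set on the array whose annotation carried the symbol of 1 of these 10 genes and no other. That gave 13 probe sets of 26688, because Cdh2, Selplg and Angpt1 have 2 each. The table as a whole named 22025 genes. A further probe set lists Itga4 together with Cerkl and was left out of the counts. The LT-HSCs came from C57BL/6J mice, female by the study's methods, in 4 groups, with 1 animal per array. AHRFX mice carry floxed Ahr alleles and no Cre, with 5 animals at 2 months and 6 at 18 months. AHRVav1 mice carry the same floxed alleles and a Vav1-Cre transgene, which removes Ahr in cells of the blood lineage, again with 5 animals at 2 months and 6 at 18 months. The cells were sorted from lineage-depleted marrow as CD48- and CD150+, with a stain that also covered Sca-1, cKit and CD34. The study's abstract describes them as LSK cells that were also CD34-. The RNA of the sorted cells was amplified before it was hybridized. Vav1-Cre acts from before birth, so the stem cells of AHRVav1 mice developed without AHR, and no group lost it as an adult. AHR, the aryl hydrocarbon receptor, is a transcription factor switched on by small ligands.

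Stem cells reach the marrow and stay there through a short series of contacts. Selectins on the vessel wall slow the cell through glycoprotein ligands such as PSGL-1 and CD44. The chemokine CXCL12, sensed by CXCR4, then switches integrins such as VLA-4 to a form that binds VCAM-1, and inside the cell plaque proteins tie the bound integrins to actin. Cadherins and the angiopoietin and Tie2 pair are further contacts that have been studied as anchors of quiescent stem cells in the niche.

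AHR binds DNA with its partner ARNT at elements built around the core GCGTG. This core was searched in both directions (as GCGTG and as its reverse complement CACGC, with no other motif searched) in the promoters of the members, each running from 250 bases before to 50 after the start site. RefSeq promoters (build GRCm38.p6) were at hand for 5 members. Cxcr4 and Itga4 each hold 1 match, and Cd44, Itgb1 and Vcl hold none, beside 32.4% of the 32851 mouse promoters in the same table that hold at least 1. A match is a run of letters and not a shown binding site. The stretches with the match are printed because they place the only cores found among these genes, with the core in capitals. That of Cxcr4 lies at chr1:128592300-128592549 on the minus strand and ends at the base before the start site, with its core beginning at position -39. That of Itga4 lies at chr2:79255176-79255445 on the plus strand and runs 20 bases past the start site, with its core beginning at position 9.
Cxcr4: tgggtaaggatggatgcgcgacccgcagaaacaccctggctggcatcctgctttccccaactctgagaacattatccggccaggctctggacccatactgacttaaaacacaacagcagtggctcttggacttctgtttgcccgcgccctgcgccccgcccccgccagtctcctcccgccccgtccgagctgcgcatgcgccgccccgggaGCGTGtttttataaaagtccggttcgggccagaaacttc
Itga4: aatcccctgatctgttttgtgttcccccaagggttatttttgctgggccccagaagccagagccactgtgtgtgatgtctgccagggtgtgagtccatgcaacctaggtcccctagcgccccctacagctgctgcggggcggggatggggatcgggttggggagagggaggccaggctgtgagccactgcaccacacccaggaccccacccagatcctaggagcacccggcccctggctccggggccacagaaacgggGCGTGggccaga

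The arrays of the 2 ages differed in quality, which bears on every comparison below. Values are signals on a linear scale, and differences were taken on log2(signal + 16). Adding 16 shrinks the differences of dim probe sets. The background of an array was set at the 95th percentile of 1401 probe sets for olfactory and vomeronasal receptors, which are silent in blood cells. It lay between 58.5 and 95.7 on the 2-month arrays and between 25.2 and 31.3 on the 18-month arrays. Between 24.42% and 34.29% of probe sets exceeded it at 2 months, against 52.33% to 58.7% at 18 months. Arrays of the same group correlated at 0.682 to 0.774 at 2 months and at 0.95 to 0.981 at 18 months. Within a group the SD of a typical (median) probe set was 0.484 (AHRFX) and 0.485 (AHRVav1) at 2 months and 0.24 and 0.212 at 18 months. No source used here gives a scan date or run for any array, so age and array run cannot be told apart. At 18 months the arrays numbered 1 and 2 of each genotype stood apart from those numbered 3 to 6, so the values that rest on them are given with and without them. Of 12 LT-HSC markers measured, 11 exceeded background on every 18-month array of each genotype, and 6 (AHRFX) or 5 (AHRVav1) did so on every 2-month array.

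Ahr itself was at or below background on all 2-month arrays. Its signals there were 5.3, 5.3, 7.7, 7.0 and 2.0 in AHRFX and 5.8, 10.1, 2.6, 6.0 and 4.1 in AHRVav1, so the labels could not be checked at that age. At 18 months it ran from 23.6 to 97.2 in AHRFX (median 46.7) and from 18.1 to 38.1 in AHRVav1 (median 26.5). The groups overlapped, and the difference of -0.57 (SE 0.20) did not pass the test (adjusted p = 0.793). Where the probes lie relative to the deleted part of Ahr is not given, so this signal is a weak check.

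**Figure D1:**
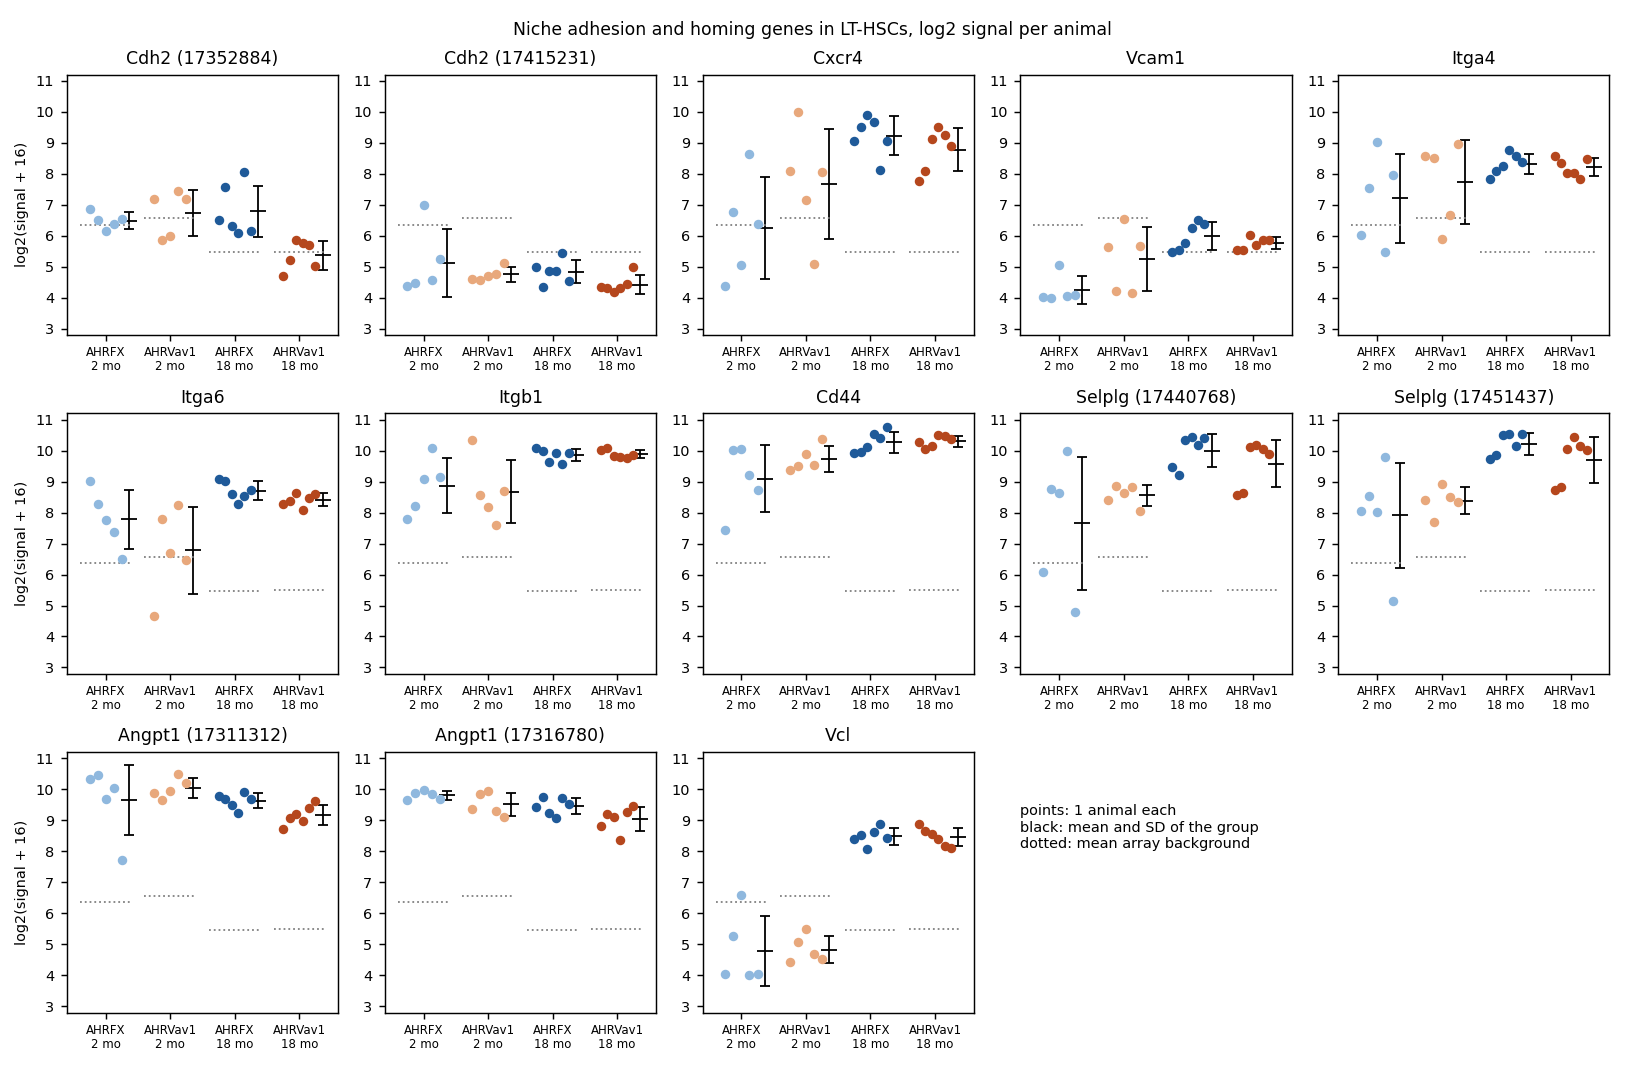
Log2(signal + 16) of each of the 13 probe sets (vertical axis) in the 4 groups (horizontal axis), with 1 point per animal, the group mean and SD in black and the mean array background as a dotted line. The 2-month groups are wide and the 18-month groups narrow. Vcl lies below the background line in 4 of 5 AHRFX and 5 of 5 AHRVav1 animals at 2 months and far above it in all 12 animals at 18 months.

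No member differed between AHRVav1 and AHRFX at either age by limma with Benjamini-Hochberg adjustment over all probe sets, and neither did any other probe set (0% of 26688 at each age, and 0 by the methods' t-test with the same adjustment). At 18 months the lowest unadjusted p-values belonged to Cdh2 and Angpt1, whose 4 probe sets all lay lower in AHRVav1. Of these, Cdh2 17415231 exceeded background there in 1 of 6 AHRFX and 0 of 6 AHRVav1 animals. Its assignment to Cdh2 is uncertain, as given below. With age, 7 of 13 probe sets rose and 0 fell in AHRFX, beside 20.2% of all probe sets that rose and 24.2% that fell. In AHRVav1 6 rose and 2 fell, beside 22.8% and 26.2%. Of all probe sets called, 45.4% rose in AHRFX and 46.5% in AHRVav1, or 35.2% and 36.4% when the values were quantile-normalized again. This balance reversed in the upper signal range. That range was set by mean signal, from the same values as the age test, so it is no independent check. Among the 13345 probe sets of the upper signal range, which hold 11 of the 13 members, 3815 rose and 2439 fell in AHRFX (median difference 0.42) and 4370 rose and 2589 fell in AHRVav1 (median 0.50). The members there gave 6 up and 0 down in AHRFX and 6 up and 2 down in AHRVav1. Quantile normalization again gave 5 up and 3 down among the members in AHRVav1. Vcl, the plaque protein vinculin, rose most in each genotype. The groups were free of overlap upwards with age for Vcl and Vcam1 in AHRFX (10.7% of all probe sets) and for Vcl in AHRVav1 (13.1%), and downwards for no member in AHRFX (13.6%) and for Angpt1 in AHRVav1 (15.3%). The 2 age comparisons share no animals with each other, but each shares its animals with the genotype comparisons. Because each array measured a sorted population, fewer cells that carry a transcript and less of it per cell cannot be told apart.

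Cxcr4, the receptor for the niche chemokine CXCL12, varied widely at 2 months and rose with age in AHRFX. Its signals were 4.9, 93.2, 17.2, 383.4 and 66.2 in AHRFX and 255.9, 998.9, 124.9, 17.6 and 248.2 in AHRVav1 at 2 months. At 18 months they ran from 263.5 to 934.0 in AHRFX (median 612.8) and from 200.1 to 711.1 in AHRVav1 (median 501.1). Every 18-month animal exceeded background, against 3 of 5 AHRFX and 4 of 5 AHRVav1 animals at 2 months. In AHRFX the rise with age was 2.97 (SE 0.64, adjusted p = 0.00356), and 2.3 when the 2 animals under background were set to it. It passed the test in each of 11 alternative settings and each of 11 fits that left out 1 animal. In AHRVav1 the difference with age was 1.10 (SE 0.69, adjusted p = 0.195). It passed only when AHRVav1 replicate 2 of 2 months was left out (1.69, adjusted p = 0.0321). The genotype difference was 1.42 at 2 months with a 95% interval from -0.71 to 3.55, and -0.45 at 18 months with an interval from -1.12 to 0.22. The latter rested on 2 arrays. AHRVav1 arrays 1 and 2 read 200.1 and 254.7, while the other 4 lay between 462.7 and 711.1, and without arrays 1 and 2 of each genotype the difference was 0.01. The difference between the 2 genotype differences was -1.87 (SE 0.99, adjusted p = 0.664).

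Among the integrins, the beta chain was called higher with age in each genotype, Itga6 in AHRVav1 only and Itga4 in neither. Itgb1 encodes the beta 1 chain shared by the fibronectin, laminin and VCAM-1 receptors of stem cells. It read 205.1, 283.7, 527.0, 1058.6 and 548.8 in AHRFX and 1270.3, 366.1, 275.7, 176.2 and 397.5 in AHRVav1 at 2 months, all above background. At 18 months its spread was narrow, from 748.6 to 1071.6 in AHRFX (median 964.1) and from 850.8 to 1058.6 in AHRVav1 (median 897.2). The rise with age was 0.998 (SE 0.35, adjusted p = 0.0327) in AHRFX and 1.21 (SE 0.38, adjusted p = 0.0198) in AHRVav1. In AHRFX the call was lost, at an adjusted p of 0.0594 to 0.0695, without replicate 1 or 2 of 2 months or replicate 1, 2, 4 or 6 of 18 months. Without 18-month arrays 1 and 2 it was lost in each genotype, at 0.114 in AHRFX and 0.0797 in AHRVav1. The methods' t-test also lost the call in AHRFX. The genotypes differed at 18 months by 0.03, with an interval from -0.21 to 0.26.

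Itga4, the alpha 4 chain of VLA-4, gave no call. Its signals were 49.0, 169.0, 505.1, 28.8 and 233.6 in AHRFX and 363.8, 351.0, 43.6, 86.4 and 486.3 in AHRVav1 at 2 months, with no order by genotype. At 18 months they ran from 212.4 to 416.9 in AHRFX (median 302.1) and from 209.4 to 362.5 in AHRVav1 (median 277.6). The difference with age was 1.11 (SE 0.55, adjusted p = 0.112) in AHRFX and 0.48 (SE 0.52, adjusted p = 0.45) in AHRVav1. In AHRFX it passed only without replicate 3 of 2 months (1.56, adjusted p = 0.0192). The genotype difference at 18 months was -0.11 (SE 0.17) over all arrays but ran in opposite directions within them. It was 0.50 within arrays 1 and 2, where AHRVav1 read 362.5 and 311.0 against 212.4 and 256.3 in AHRFX, and -0.41 within arrays 3 to 6. The probe set shared with Cerkl had a genotype difference of 0.30 (SE 0.22, adjusted p = 0.861) at 18 months.

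Itga6 encodes the alpha 6 chain, which pairs with beta 1 as a laminin receptor. Its signals were 504.1, 294.3, 200.9, 151.3 and 74.0 in AHRFX and 9.3, 206.3, 88.5, 289.9 and 72.9 in AHRVav1 at 2 months, where 5 of 5 and 3 of 5 animals exceeded background. At 18 months they ran from 297.1 to 523.3 in AHRFX (median 391.6) and from 255.9 to 379.9 in AHRVav1 (median 329.2). In AHRVav1 it rose with age by 1.63 (SE 0.53, adjusted p = 0.022). In AHRFX the difference was 0.92 (SE 0.40, adjusted p = 0.0752) and passed without replicate 1 of 2 months (1.23, adjusted p = 0.0151). The rise of AHRVav1 did not pass without 18-month arrays 1 and 2 (1.67, adjusted p = 0.0653). At 18 months AHRVav1 lay lower by 0.30 on the log2 scale (-0.30, SE 0.15, adjusted p = 0.824), with all 6 animals under the AHRFX mean, and without arrays 1 and 2 the value was -0.09.

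Vcam1, the endothelial and stromal ligand of VLA-4 that some blood cells also carry, was dim. Its 2-month signals were 0.1, 0.0, 17.5, 0.5 and 1.1 in AHRFX, all under background, and 33.2, 2.5, 77.2, 1.6 and 34.5 in AHRVav1, of which 1 of 5 exceeded it. At 18 months they ran from 28.5 to 74.8 in AHRFX (median 49.05) and from 30.5 to 48.7 in AHRVav1 (median 38.75), with 5 of 6 and 6 of 6 animals above background. In AHRFX the test called a rise with age of 1.74 (SE 0.25, adjusted p = 0.000288) and the groups did not overlap. No fold is given for it, because the mean of the 18-month signals lay below the 2-month background by 0.37 on the log2 scale (-0.37). The difference in AHRVav1 was 0.52 (SE 0.38, adjusted p = 0.264), and it passed only without replicate 3 of 2 months (0.85, adjusted p = 0.0412). The 2-month genotype difference of 0.99 (SE 0.45) had an unadjusted p of 0.0485 and an adjusted p of 0.966. It was the only member under an unadjusted 0.05 at 2 months, beside 4.64% of all probe sets.

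The carriers of selectin ligands rose with age in each genotype. Selplg encodes PSGL-1, the P-selectin ligand of blood cells, and its probe sets 17440768 and 17451437 moved together, with r = 0.964 over 12 arrays of 18 months and 0.839 over 10 arrays of 2 months (arrays share the normalization, so r is a description). Probe set 17440768 read 51.0, 420.7, 382.3, 988.4 and 11.8 in AHRFX and 320.2, 451.1, 381.7, 436.5 and 247.7 in AHRVav1 at 2 months. By 18 months the range was 579.1 to 1359.1 in AHRFX (median 1201) and from 365.1 to 1152.5 in AHRVav1 (median 991.7). AHRFX replicate 5 of 2 months was the lowest on each probe set, at 11.8 and 19.7. The rise with age in AHRFX was 2.35 (SE 0.76, adjusted p = 0.0252) on 17440768 and 2.31 (SE 0.61, adjusted p = 0.00999) on 17451437. In AHRVav1 it was 1.02 (SE 0.35, adjusted p = 0.0295) and 1.32 (SE 0.36, adjusted p = 0.00916). The calls of 17451437 stood without each animal in turn. Those of 17440768 did not. They were lost in AHRFX without replicate 1 of 2 months or 4 or 6 of 18 months, at an adjusted p of 0.0502 to 0.0609. In AHRVav1 they were lost without replicate 1 or 5 of 2 months or 3, 4, 5 or 6 of 18 months, at 0.051 to 0.0668. They were also lost in AHRFX by the methods' t-test (0.0626), and in AHRVav1 with array weights (0.113) and with all 4 groups in one fit (0.18).

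At 18 months Selplg split by array number more than by genotype. On 17440768 arrays 1 and 2 read 690.7 and 579.1 in AHRFX and 365.1 and 379.4 in AHRVav1, while arrays 3 to 6 lay between 1135.1 and 1359.1 in AHRFX and between 934.7 and 1152.5 in AHRVav1. Within each set AHRVav1 lay lower on average. The genotype difference was -0.42 (SE 0.31, adjusted p = 0.857) on 17440768 and -0.52 (SE 0.27, adjusted p = 0.831) on 17451437 over all arrays. Within arrays 1 and 2 it was -0.74 and -1.03, and within arrays 3 to 6 it was -0.27 on each. With a term for array number the unadjusted p-values were 0.00102 and 0.00128 and the adjusted ones 0.406 and 0.422.

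**Figure D2:**
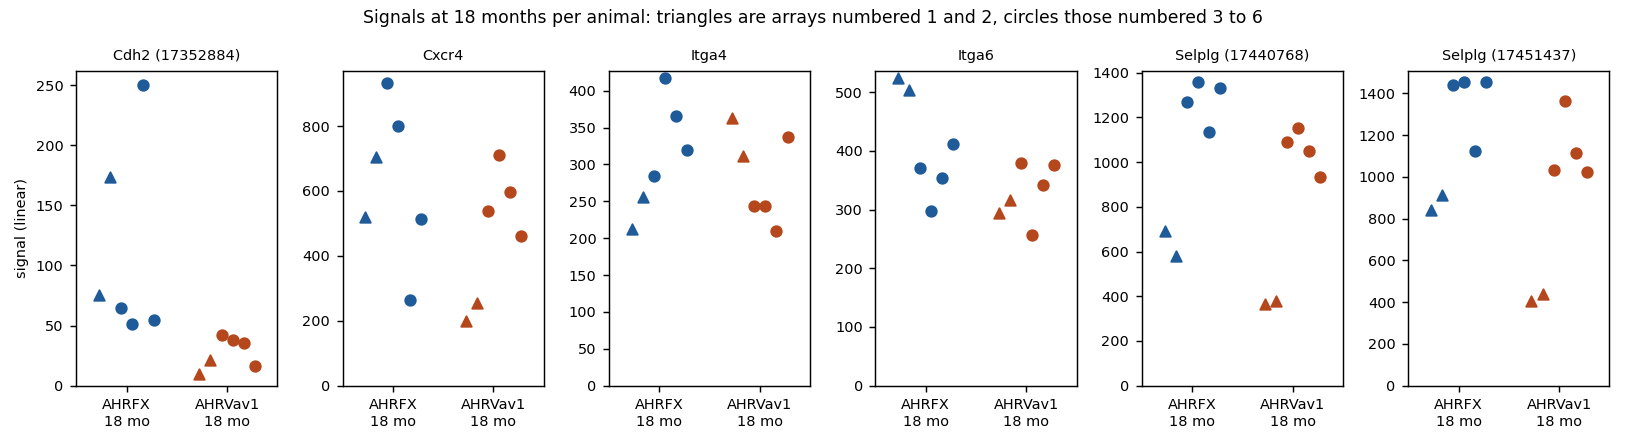
Signal on a linear scale (vertical axis) of 6 probe sets at 18 months in AHRFX and AHRVav1 (horizontal axis), with 1 point per animal. Triangles are arrays numbered 1 and 2 and circles those numbered 3 to 6. For Cxcr4 and Selplg the AHRVav1 triangles lie at 200.1 to 438.8, below all 4 AHRVav1 circles, whereas for Itga4 they lie at 311.0 and 362.5, above those of AHRFX.

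Cd44, the hyaluronan receptor that also carries selectin ligands, was above background in all 22 animals. It read 159.0, 1014.4, 1051.3, 576.4 and 406.8 in AHRFX and 648.5, 702.1, 933.1, 725.0 and 1318.0 in AHRVav1 at 2 months. The 18-month animals ran from 951.6 to 1701.4 in AHRFX (median 1208) and from 1038.7 to 1419.5 in AHRVav1 (median 1274). The rise with age was 1.18 (SE 0.41, adjusted p = 0.0317) in AHRFX and 0.57 (SE 0.19, adjusted p = 0.027) in AHRVav1. It was lost in AHRFX without replicate 5 of 2 months or 4, 5 or 6 of 18 months, at an adjusted p of 0.0588 to 0.0676. In AHRVav1 it was lost without replicate 1, 2 or 4 of 2 months or 4, 5 or 6 of 18 months, at 0.0519 to 0.0571. The call of AHRFX was also lost without 18-month arrays 1 and 2 (adjusted p = 0.0535) and by the methods' t-test (0.0669). That of AHRVav1 was lost with all 4 groups in one fit (0.153) and after quantile normalization again (0.0512). The genotypes differed by 0.64 at 2 months, with an interval from -0.40 to 1.68, and by 0.03 at 18 months, with an interval from -0.27 to 0.34.

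Cdh2 encodes N-cadherin, a homophilic adhesion molecule best known from neural and muscle tissue, whose level on stem cells of the niche has long been argued over. On probe set 17352884 it read 100.6, 75.1, 54.5, 66.5 and 77.9 in AHRFX and 129.9, 41.7, 47.0, 156.1 and 130.5 in AHRVav1 at 2 months, with overlapping groups. At 18 months it ran from 51.2 to 250.0 in AHRFX (median 69.8) and from 9.7 to 41.8 in AHRVav1 (median 28.5). No AHRVav1 animal reached the lowest AHRFX animal, a separation found downwards in 0.199% and upwards in 0.18% of all probe sets. Background was exceeded by 6 of 6 AHRFX and 3 of 6 AHRVav1 animals. The difference was -1.41 (SE 0.32), with an unadjusted p of 0.000499 and an adjusted p of 0.695. With the 3 AHRVav1 animals under background set to it, AHRFX lay higher by 1.16. It was -2.08 within arrays 1 and 2 and -1.07 within arrays 3 to 6. Leaving out 1 animal at a time gave -1.55 to -1.15. At 2 months the difference was 0.24 (SE 0.39), and no member's groups were free of overlap there (0.495% of all probe sets downwards and 0.363% upwards). With age this probe set fell by 1.35 in AHRVav1 (SE 0.35, adjusted p = 0.00706), a call that stood in each of 11 alternatives and without each animal in turn. The fall was 1.11 with the 18-month animals under background set to it. Only 3 of 5 AHRVav1 animals exceeded background at 2 months and 3 of 6 at 18 months. That background ran from 68.7 to 95.7 at 2 months and from 26.6 to 30.5 at 18 months, so the size of the fall is uncertain. In AHRFX the difference with age was 0.29 (SE 0.38, adjusted p = 0.54).

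The change of the genotype difference between the ages was -1.65 for this Cdh2 probe set (SE 0.53, unadjusted p = 0.00478, adjusted p = 0.464). It passed in no alternative setting. Vcam1, at -1.22 (SE 0.48, unadjusted p = 0.0173, adjusted p = 0.532), was the only other member under an unadjusted 0.05, beside 7.93% of all probe sets. Past the adjusted threshold lay 0.0112% of all probe sets and 0 members.

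The other Cdh2 probe set, 17415231, gave hardly any signal. It exceeded background in 1 of 5 AHRFX animals at 2 months (110.4), in 1 of 6 AHRFX animals at 18 months (27.8) and in no AHRVav1 animal. No fold is given for it. Its genotype difference at 18 months was -0.42 (SE 0.17, unadjusted p = 0.0246, adjusted p = 0.795). The probe sets of Cdh2 correlated at 0.48 over the 12 arrays of 18 months and at -0.207 over the 10 of 2 months. On this array probe sets of neighbouring genes have neighbouring numbers. Of the 8 neighbours of 17415231 that could be placed on a chromosome, 0 lay on the chromosome of Cdh2 (those next to it were Acer2 and Focad), whereas 7 of 7 neighbours of 17352884 did.

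The probe sets most similar to Cdh2 17352884 over the 12 arrays of 18 months, among those of the upper signal range, were Tsc22d1 (r = 0.883), Tmed9 (0.872), Kbtbd11 (0.846), Ppp1r3b (0.845) and Ap3b1 (0.839). They were picked for this likeness, and the 12 points share 2 groups and 1 normalization. After subtraction of the group means the r values were 0.621 to 0.745. Kbtbd11 ran from 64.1 to 111.4 in AHRFX and from 33.8 to 78.5 in AHRVav1 (difference -0.55, adjusted p = 0.793).

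Angpt1, the ligand of the Tie2 receptor that stem cells themselves make, was bright in every group. On probe set 17311312 it read 1274.4, 1412.8, 807.1, 1054.4 and 193.7 in AHRFX and 928.7, 791.6, 984.3, 1445.6 and 1165.7 in AHRVav1 at 2 months. On 17316780 the same animals read 785.0, 938.6, 1004.0, 906.4 and 805.8, and 651.3, 917.0, 978.5, 617.6 and 535.4. The low AHRFX animal, replicate 5, stood out on the former only. At 18 months 17311312 ran from 592.2 to 959.5 in AHRFX (median 810.2) and from 403.9 to 776.5 in AHRVav1 (median 548.2). The other ran from 521.0 to 846.3 (median 702) and from 314.4 to 698.1 (median 559.9). The probe sets correlated at 0.849 over 12 arrays of 18 months and at -0.164 over 10 arrays of 2 months. At 18 months AHRVav1 lay lower on each, by -0.47 (SE 0.15, unadjusted p = 0.00742, adjusted p = 0.793) and -0.42 (SE 0.18, unadjusted p = 0.0313, adjusted p = 0.805), with overlapping groups. Without arrays 1 and 2 these were -0.29 and -0.34. With age, 17311312 fell by 0.88 in AHRVav1 (SE 0.22, adjusted p = 0.00598), where the groups did not overlap, and differed by -0.01 in AHRFX (SE 0.41, adjusted p = 0.98). The other probe set differed by -0.48 (adjusted p = 0.129) and -0.35 (adjusted p = 0.132), so the call in AHRVav1 rests on 17311312 alone.

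Over all members the 18-month genotype differences lay below 0 on 11 of 13 probe sets, with a median of -0.42, while the median of all probe sets was 0.00. Under an unadjusted 0.05 lay 4 of 13 (both of Cdh2 and both of Angpt1), beside 6.18% of all probe sets. Without arrays 1 and 2 the count below 0 was again 11 of 13 and the median -0.27. At 2 months 4 of 13 lay below 0, with a median of 0.39, but without AHRFX replicate 5 it was 7 of 13 with a median of -0.10 (-0.0953). No marker of another cell type was called between the genotypes at 18 months, but every marker list except the erythroid one also lay mostly below 0. Of the endothelial markers (Cdh5, Pecam1, Kdr and others) 0 of 7 lay above 0, with a median of -0.35, and their summed signal ran from 418.1 to 943.3 in AHRFX and from 307.9 to 593.4 in AHRVav1. Of the megakaryocyte and platelet markers 0 of 7 lay above 0 (median -0.44), with summed signals of 2386 to 4402 and 1651 to 2914. Of the stromal markers 1 of 8 lay above 0 (median -0.17), at 367.5 to 522 and 257.1 to 580.1, with Lepr, Kitl and Bglap above background on no 18-month array. Their part in the values of Cdh2, Vcam1 and Angpt1 was not tested. Of the LT-HSC markers 1 of 12 lay above 0 (median -0.12). Above 0 lay 0 of 7 mast cell and basophil markers (median -0.262) and 2 of 8 monocyte and macrophage markers, Vcam1 included (-0.215). So did 2 of 8 granulocyte (-0.158), 1 of 6 B cell (-0.0805) and 2 of 7 T and NK cell markers (-0.185). The erythroid markers lay the other way, with 4 of 4 above 0 (median 0.19). A count of members below 0 is therefore not particular to the members.

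**Figure D3:**
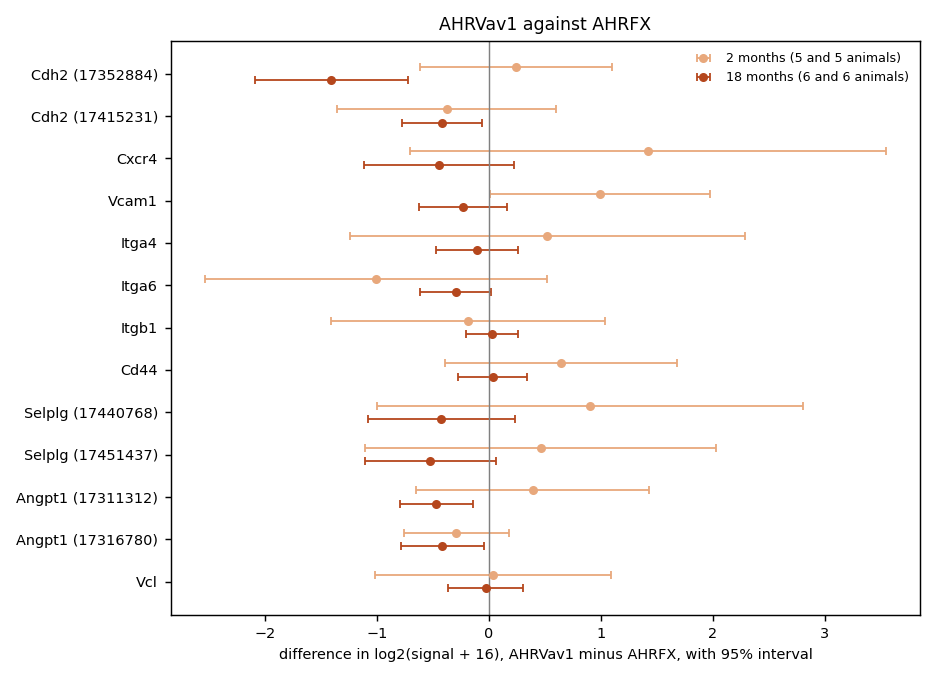
Difference in log2(signal + 16) between AHRVav1 and AHRFX (horizontal axis, with its 95% interval) for each of the 13 probe sets (vertical axis) at 2 and at 18 months. None passed the adjusted threshold. The 2-month intervals are wide, and that of Cdh2 17352884 at 18 months runs from -2.09 to -0.72.

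Vcl encodes vinculin, which links integrins and cadherins to actin. Its 2-month signals were 0.6, 22.4, 80.3, 0.2 and 0.5 in AHRFX, of which 1 of 5 exceeded background, and 5.4, 17.4, 28.7, 9.6 and 7.0 in AHRVav1, of which none did. Its 18-month signals ran from 252.0 to 460.0 in AHRFX (median 344.7) and from 262.3 to 452.7 in AHRVav1 (median 342). Every 18-month animal exceeded every 2-month animal of its genotype. The rise was 3.70 in AHRFX (SE 0.45, adjusted p = 8.4e-05) and 3.63 in AHRVav1 (SE 0.28, adjusted p = 4.15e-06), each called in all 11 alternatives and without each animal in turn. Because the 2-month level of AHRVav1 is only bounded by background, the rise there was at least 3.75-fold, taking for each 2-month array the higher of its background and its own signal. In AHRFX the same bound gave 2.06 on the log2 scale, with 1 of 5 animals measured. The genotypes differed by 0.04 at 2 months, with an interval from -1.01 to 1.09, and by -0.03 at 18 months, with an interval from -0.37 to 0.31.

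Some markers of blood and other cell types were also called with age. Over all probe sets 20.2% rose and 24.2% fell in AHRFX, and 22.8% rose and 26.2% fell in AHRVav1. Of the megakaryocyte and platelet markers 5 of 7 rose in AHRFX and 4 of 7 in AHRVav1, and of the monocyte and macrophage markers, Vcam1 included, 5 of 8 rose in each genotype and 1 fell in AHRVav1. Of the granulocyte markers 3 of 8 rose in AHRFX and 1 in AHRVav1, of the mast cell and basophil markers 3 of 7 rose in AHRFX and 4 rose and 2 fell in AHRVav1, and of the 6 B cell markers 0 rose and 2 fell in each genotype. Of the 4 erythroid markers 3 rose in AHRFX and 1 in AHRVav1, and of the 7 endothelial markers 3 rose in AHRFX and 1 fell in AHRVav1. Of the 8 stromal markers 1 rose and 3 fell in AHRFX, and 1 rose and 2 fell in AHRVav1. Of the 7 T and NK cell markers 1 rose and 1 fell in AHRFX, and 1 rose and 2 fell in AHRVav1. Of the 12 LT-HSC markers 3 rose and 2 fell in AHRFX, and 1 rose and 2 fell in AHRVav1. Their part in the rise of the members was not tested.

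**Figure D4:**
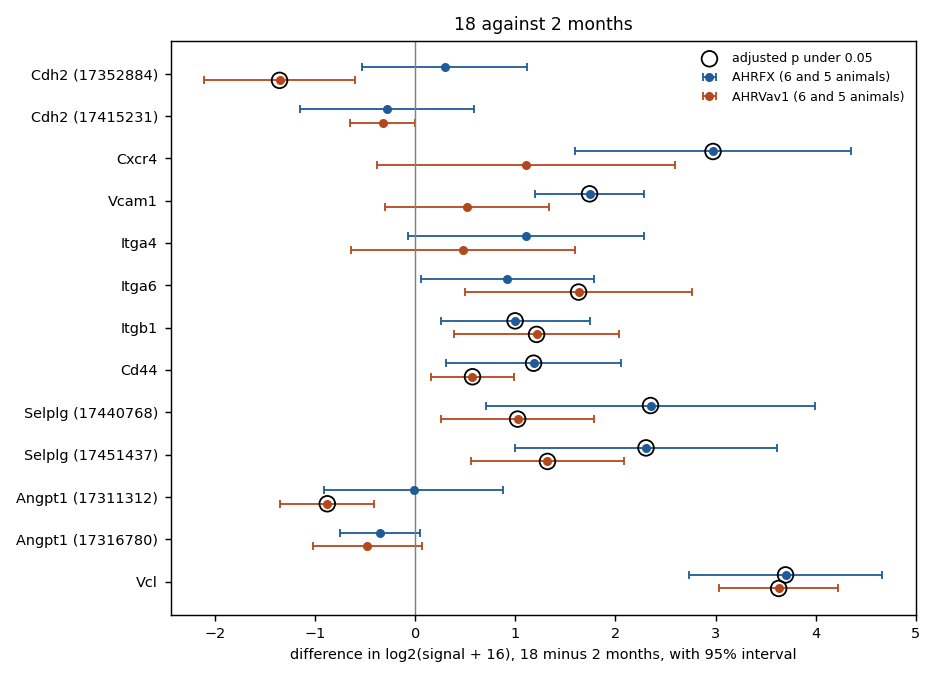
Difference in log2(signal + 16) between 18 and 2 months (horizontal axis, with its 95% interval) for each of the 13 probe sets (vertical axis) in AHRFX and in AHRVav1, with circles around those past the adjusted threshold. Vcl lies farthest to the right, at 3.70 and 3.63, and Cdh2 17352884 farthest to the left, at -1.35 in AHRVav1.

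Within the 18-month groups some members varied together from animal to animal (deviations from the group means, 12 arrays, given as a description). Vcam1 and Cd44 had r = 0.772, Cxcr4 and Selplg 17451437 had r = 0.743, and Cxcr4 and Vcl had r = -0.735. The arrays share the split by number described above.

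The wider adhesion machinery was read from 7 lists, among them integrins, plaque proteins, cadherins, selectins, angiopoietins and other niche receptors, with 148 measured genes beside the members (1 probe set each). Between the genotypes 0 of 148 were called at either age, and 11 (2 months) and 13 (18 months) lay under an unadjusted 0.05, beside 4.62% and 6.18% of 22025 genes. Their median genotype difference was -0.0325 at 2 months and -0.109 at 18 months, beside -0.00975 and 8.48e-05 over all genes. With age 58 rose and 19 fell in AHRFX, beside 21% and 24.5% of all genes, and 44 rose and 24 fell in AHRVav1, beside 23.5% and 26.5%. Without 18-month arrays 1 and 2 these became 44 and 10 in AHRFX and 41 and 12 in AHRVav1. The 96 list genes of the upper signal range gave 47 up and 5 down in AHRFX and 37 up and 8 down in AHRVav1. That range was set by mean signal, from the same values as the age test, so where the falls lie was not tested. Most called genes of the selectins and their ligands rose (9 up and 1 down of 16 in AHRFX, 8 and 2 in AHRVav1). Among the cadherins and catenins more fell than rose (4 up and 10 down of 22 in AHRFX, 3 and 7 in AHRVav1). Some of these falls were of signals under background at both ages, as given below, and the background itself was lower at 18 months.

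Rap1b, a small GTPase that activates integrins, ran from 908.0 to 1376.6 at 2 months and from 2296.3 to 3246.5 at 18 months in AHRFX (1.27, adjusted p = 3.1e-05). The groups did not overlap. Apbb1ip, the Rap1 effector that recruits talin, rose by 2.47 in AHRVav1 (adjusted p = 0.0012), from 22.9 to 363.2 at 2 months to 636.3 to 909.3 at 18 months. B4galt1, a galactosyltransferase that helps to build selectin ligands, rose by 2.16 in AHRFX (adjusted p = 0.00162), from 23.5 to 178.8 to 391.8 to 613.5. The lowest 2-month animals of Apbb1ip and B4galt1 lay under background, so the sizes of those rises are uncertain. All Rap1b animals lay above background. Tie1, the partner receptor of Tie2, fell by 1.01 in AHRVav1, from 182.4 to 559.6 at 2 months to 134.0 to 158.3 at 18 months (adjusted p = 0.0185), a call lost in 2 of 11 alternatives. Cdh8, Cdh9 and Cdh18 were also called lower with age in AHRFX, but all their signals there lay below background at both ages (Cdh9 at 13.7 to 25.4 and 6.3 to 10.3), so no fold is given. The same held for Cdh13 (31.6 to 64.5 and 8.6 to 17.4) and Cdh18 in AHRVav1.

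The list genes named for their genotype difference at 18 months were picked by smallest unadjusted p. Their number and direction therefore cannot show a trend over the lists. Of the 13 list genes under an unadjusted 0.05, 8 were named, 7 of them below 0, and none passed the test. Among them Rap1b gave -0.28 (unadjusted p = 0.0131), the plaque adaptor Lims1 -0.32 (0.0149), the adhesion molecule Alcam -0.50 (0.0156), the adhesion receptor Adgrg1 -0.25 (0.0186), the plaque adaptor paxillin, Pxn, -0.37 (0.0387) and von Willebrand factor, Vwf, -0.52 (0.0323). St3gal4, a sialyltransferase of selectin ligands, went the other way at 0.34 (0.022). 

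The single list gene whose genotype difference changed with age was Rassf5, also called RAPL, a Rap1 effector that carries active Rap1 to integrins. Its 2-month signals were 22.6, 11.0, 22.8, 7.9 and 7.3 in AHRFX, none above background, and 160.2, 59.3, 136.2, 75.4 and 193.9 in AHRVav1, of which 4 of 5 were. The 18-month signals ran from 86.0 to 129.8 in AHRFX and from 67.6 to 125.7 in AHRVav1. All AHRVav1 animals exceeded all AHRFX animals at 2 months (0.363% of all probe sets), and the groups overlapped at 18 months. With each AHRFX array set to its background, the 2-month difference was 1.6-fold, with 4 of 5 AHRVav1 animals measured. The fitted 2-month difference of 2.15 did not pass the test (adjusted p = 0.632 over these 2 groups alone). At 18 months the difference was -0.19. The change between the ages was -2.34 (SE 0.37, adjusted p = 0.0211). Its size is uncertain, because every AHRFX signal of 2 months lay under background. The call was lost with an offset of 64 (adjusted p = 0.0646) and without 18-month arrays 1 and 2 (-2.16, adjusted p = 0.55). Leaving out AHRVav1 replicate 1, 2 or 4 or AHRFX replicate 1, 3 or 4 of 18 months also lost it, at an adjusted p of 0.0503 to 0.0611.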

How the data were processed

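RNA of LT-HSCs from 22 mice was measured, 1 array per animal, so replicates are separate animals. Per the study's methods the authors deposited signal intensity values made with IterPLIER in Affymetrix Expression Console, background-subtracted, quantile-normalized and on a linear scale; no source used here gives its version or a filter. Symbols came from the platform annotation (23321 probe sets with 1, 1802 with several and 1565 with none), and 23179 of the former matched RefSeq by gene ID. Groups follow the genotype and age labels, although the cell type label names the knockout for every sample, floxed controls included. No 2 arrays were identical (0 pairs), and 4490 values were 0.

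Values were transformed as log2(signal + 16) and compared by limma 3.58.1 (R 4.3.3; lmFit, then eBayes with a trend), 2 groups at a time (all 4 for the change between ages), two-sided, with Benjamini-Hochberg adjustment over 26688 probe sets at 0.05. The fit was tested on simulated data. Signal over background and the number of animals limit the precision. Members and lists were chosen with earlier results of these data known. All members are named. Of the lists, up to 4 genes per list and comparison that passed the test were eligible by smallest p, otherwise up to 3 of the brighter probe sets by unadjusted p, and which of these the text gives was chosen after their values were seen, mostly those with signal over background. Rassf5 is the list gene called for the change between ages. Results of some list genes are not reported here. Genes like Cdh2 were the 5 of highest Pearson correlation. Alternatives are in the closing section. Figures were drawn with matplotlib 3.10.9.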

Additional observations from a re-analysis of the deposited data

Results flagged for a closer look

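Of 52 checks of a member probe set within a group, 3 gave an animal far from the rest of its group, about the number that chance alone gives at 1 in 20. Probe set 17415231 of Cdh2 was highest, at 16, in AHRVav1 replicate 6 of 18 months, still under background. Vcam1 was highest, at 17.5, in AHRFX replicate 3 of 2 months, while the other 4 lay between 0.0 and 1.1, all under background. Angpt1 (17311312) was lowest, at 193.7, in AHRFX replicate 5 of 2 months, while its other probe set read 805.8 in that animal. The genotype difference of Rassf5 changed between the ages by -2.34, by a test of the difference itself. That size is uncertain, because its AHRFX signals of 2 months lay under background.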

How the results depend on the processing

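Signal over background limits the 2-month values, and Vcl, Vcam1, Ahr and Cdh2 17415231 have only bounds there in at least 1 group. Those alternatives that concern the 148 list genes were added after seeing the data. The counts of probe sets called changed by over 1.5 times as follows. Between the genotypes at 2 months all 4 groups in one fit gave 113 instead of 0, with 1 list gene, Rassf5 (adjusted p = 0.000545). At 18 months leaving out 1 animal gave 0 to 1. With age the upper range of probe sets by mean signal (13345 tested) gave 6254 (3815 up) in AHRFX and 6959 (4370 up) in AHRVav1 instead of 11850 and 13051, with 45 list genes instead of 68 in AHRVav1. For the change between the ages, called for 3 probe sets, an offset of 64 gave 0, the upper signal range 5, no trend 5, array weights 6, 18-month arrays 1 and 2 left out 0, and leaving out 1 animal 0 to 13. The list gene among them was lost (0) with an offset of 64, with arrays 1 and 2 left out, and in some of the fits without 1 animal (0 to 1). The count of 7 member probe sets that changed with age in AHRFX was 4 by the methods' t-test, 5 without arrays 1 and 2, and 4 to 8 without 1 animal (4 without AHRFX replicate 4 or 6 of 18 months). Quantile normalization again moved the median of all differences with age in AHRVav1 from -0.0891 to -0.2024 and in AHRFX from -0.1064 to -0.2018, and gave 7 up and 0 down among the member probe sets in AHRFX and 5 up and 3 down in AHRVav1 (6 and 2 before).

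Between the genotypes at 2 months 0 of 5 same-numbered pairs correlated above 0.1, so the replicate numbers did not pair the animals there. At 18 months 5 of 6 did, with the lowest at -0.124, and 3 correlated best with their own number. Mean r at 18 months was 0.215 for arrays both numbered 1 or 2 and 0.0822 for both numbered 3 to 6. It was -0.133 for 1 of each, so a structure shared by number is not excluded at that age. The replicate block gave 7278 probe sets and 51 list genes with age in AHRFX (instead of 11850 and 77), 5 member probe sets up and 0 down in AHRFX (instead of 7 and 0) and 3 up and 3 down in AHRVav1 (instead of 6 and 2), 1 probe set and 0 list genes for the change between the ages, and changed no count of calls between the genotypes at either age. The calls lost under the block were Itgb1 (adjusted p = 0.086) and Cd44 (0.0681) in AHRFX, Itga6 (0.0562), Cd44 (0.0649) and Selplg 17440768 (0.0823) in AHRVav1, and the change of Rassf5 between the ages (0.0898), and Cdh2 17415231 was gained in AHRVav1 (0.0183).

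Directions reversed only for member differences that did not pass the test. Between the genotypes at 2 months, Vcl turned to -0.057 with an offset of 64 and to -0.0034 with array weights. At 18 months Cxcr4 turned to 0.011 without arrays 1 and 2, and Cd44 to -0.038 with array weights and -0.065 without those arrays. Leaving out 1 animal gave ranges across 0 at 2 months for Cdh2 17415231 (-0.57 to 0.085), Itgb1 (-0.60 to 0.11), Selplg 17451437 (-0.23 to 0.93), Angpt1 17311312 (-0.095 to 0.60) and Vcl (-0.15 to 0.49). At 18 months it did so for Itgb1 (-0.030 to 0.072), Cd44 (-0.038 to 0.13) and Vcl (-0.11 to 0.051), and with age in AHRFX for Cdh2 17415231 (-0.48 to 0.18) and Angpt1 17311312 (-0.50 to 0.19). The cause of these changes was not tested.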

Other observations

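The probe set that lists Itga4 with Cerkl did not follow the one of Itga4 alone. It read 80.9, 129.1, 194.2, 91.8 and 52.0 in AHRFX and 0.3 to 167.0 (median 18.1) in AHRVav1 at 2 months. At 18 months it ran from 32.2 to 111.6 in AHRFX and from 76.1 to 102.5 in AHRVav1. Of its neighbours by probe set number 7 could be placed, and all 7 lay on the chromosome of Itga4.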
